A study of Macaca mulatta with 6 samples.

Results

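The genes described here encode the nuclear-encoded subunits of the mitochondrial respiratory chain and ATP synthase. They were chosen by their symbols: the NDUFA, NDUFB, NDUFC, NDUFS and NDUFV families of complex I, SDHA to SDHD of complex II, the UQCR family and CYC1 of complex III, cytochrome c (CYCS), the COX4 to COX8 families of complex IV and the ATP5 family of complex V. The rule matched 75 gene symbols, with 107 transcripts, out of 24932 genes with 44605 transcripts in the table. Of these, 68 are subunits or cytochrome c: 31 in complex I, 4 in complex II, 9 in complex III, 12 in complex IV, 11 in complex V, and CYCS. NDUFA4 was counted in complex IV, of which it is known to be a subunit. The other 7 symbols (COX4NB, COX7A2L, ATP5S, ATP5SL, NDUFA4L2, SDHAF1 and SDHAF2) match by name but are not subunits and were kept outside the complexes.

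The cells were RF/6A, a rhesus macaque line labelled as choroidal endothelial, grown to confluency on porous inserts. They received 50% normal human serum for 4 hours (3 libraries) or 50% human serum that had been heat-inactivated (3 libraries), and polyadenylated RNA was sequenced. Normal serum holds active complement, which can build the membrane attack complex, a protein pore in cell membranes, and heating destroys it. No library had complement removed in another way, so complement cannot be told apart from other serum components that heating alters. Whether the replicates were separate cultures is not stated in the labels, so the p-values reflect only how far these libraries scatter, and part of that scatter may be technical. All 6 libraries come from 1 cell line.

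Of 10 listed endothelial markers 9 were found and 2 (PECAM1 and ESAM) averaged at least 1 FPKM. The endothelial cadherin gene CDH5 was close to 0 in normal serum and listed at 0 in all heat-inactivated serum libraries. The endothelial markers summed to between 13.6 and 15.4 FPKM in normal serum and between 6.49 and 7.47 FPKM in heat-inactivated serum. PECAM1 and ESAM made up most of that sum, and VWF, CLDN5 and CDH5 also averaged higher in normal serum. KDR went the other way, with 0.105 ± 0.052 FPKM in normal serum and 0.370 ± 0.037 FPKM in heat-inactivated serum (SD, n = 3 each). TEK and TIE1, also below 1 FPKM, averaged lower in normal serum too, and ERG was nearly equal. All 9 mural and fibroblast markers found averaged at least 1 FPKM, and they summed to between 4437 and 4658 FPKM in normal serum and between 7738 and 8260 FPKM in heat-inactivated serum. COL1A1, COL3A1 and TAGLN made up most of that sum in both treatments, and 8 of the 9 averaged lower in normal serum. TAGLN went the other way, with 1367 ± 94.6 FPKM in normal serum and 1013 ± 20.4 FPKM in heat-inactivated serum (SD, n = 3 each). Of 5 retinal pigment epithelium markers only PMEL averaged at least 1 FPKM, and that list summed to between 36.1 and 43.5 FPKM in normal serum and between 37.0 and 41.5 FPKM in heat-inactivated serum. The sums of the first and second of these lists thus differ between the treatments, as the subunits do, though not every marker in them moved the same way. The part of these lists in the results below was not tested. Depth read from the lowest values lay between 13825000 and 17200000 fragments in normal serum and between 14150000 and 16150000 fragments in heat-inactivated serum. Replicate 1 of both treatments gave only approximate depths. In RNA taken from many cells at once, a change in the number of cells that hold a transcript and a change in RNA per cell cannot be told apart.

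The respiratory chain passes electrons from NADH (complex I) and succinate (complex II) through ubiquinone to complex III, through the small carrier cytochrome c to complex IV, and there to oxygen. Complexes I, III and IV pump protons out of the mitochondrial matrix, and complex V, the ATP synthase, lets them back in to make ATP. Complex II is wholly nuclear-encoded, while each of the others combines nuclear-encoded subunits with subunits made inside the mitochondrion from mitochondrial DNA.

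In FPKM without rescaling, most subunit transcripts were moderately higher in normal serum. How many were called depended on the scaling, as given below. Of the 60 subunits with a mean of at least 1 FPKM (sequenced fragments relative to library depth, per length of transcript), 36 were higher and 1, NDUFV1, was lower at an adjusted p under 0.05 (limma on log2(FPKM + 1)). The other 23 were not called. Among all 11818 genes tested 27.8% were called higher and 26.1% lower, 54.0% in either direction. The median log2 change of the 60 subunits was 0.27, against 0.01 for all genes tested. The values in normal serum lay wholly above those in heat-inactivated serum for 37 subunits and wholly below for 3, and among all genes tested this held for 32.1% and 30.5%. The changes were small: 4 subunits had a log2 change of at least 0.5 (CYCS, NDUFB4, NDUFB2 and NDUFC2).

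**Figure D1:**
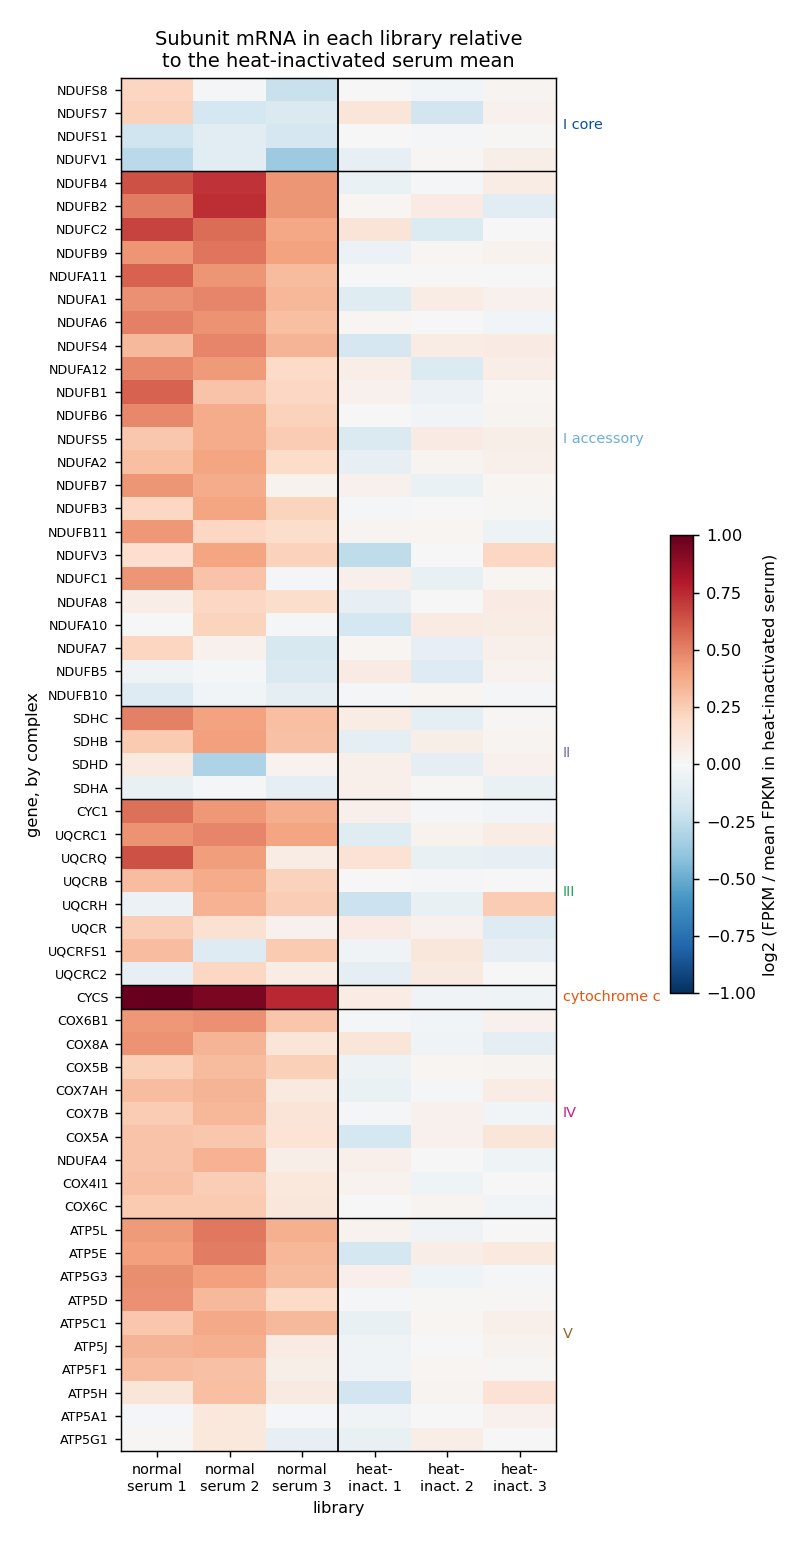
Each row is a tested subunit gene (all but 1 of the 60), grouped by complex and ordered within a group by its log2 change, and each column is a library. Colour gives the log2 of the library's FPKM over the mean FPKM in heat-inactivated serum, red for higher. The normal serum columns are red for most rows outside the complex I core, and normal serum replicate 3 is the palest of the 3.

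The normal serum libraries did not move equally. Replicate 3 was the lowest of the 3 normal serum libraries for 44 of the 60 subunits, as the colour map of subunits by library shows. That library also had the lowest total FPKM of its group (980877, against 1010695 and 1016474). The share of all genes lowest in it is not given, and the part of scaling was not tested. The transcripts of the tested members were short, with a median length of 704 bases against 1812 for all genes tested. They were also abundant, with a median of 128 FPKM over the 6 libraries against 13.9 FPKM. Abundant genes as a whole were called higher more often. Among all genes with a mean of 50 to 200 FPKM 47.2% were higher (median log2 change 0.19), and among the 37 members in that range 62.2% were (median 0.28). At 200 FPKM or more the shares were 48.8% of all genes (median 0.22) and 76.5% of 17 members (median 0.31). The part that expression level plays in the subunits' changes was not tested.

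**Figure D2:**
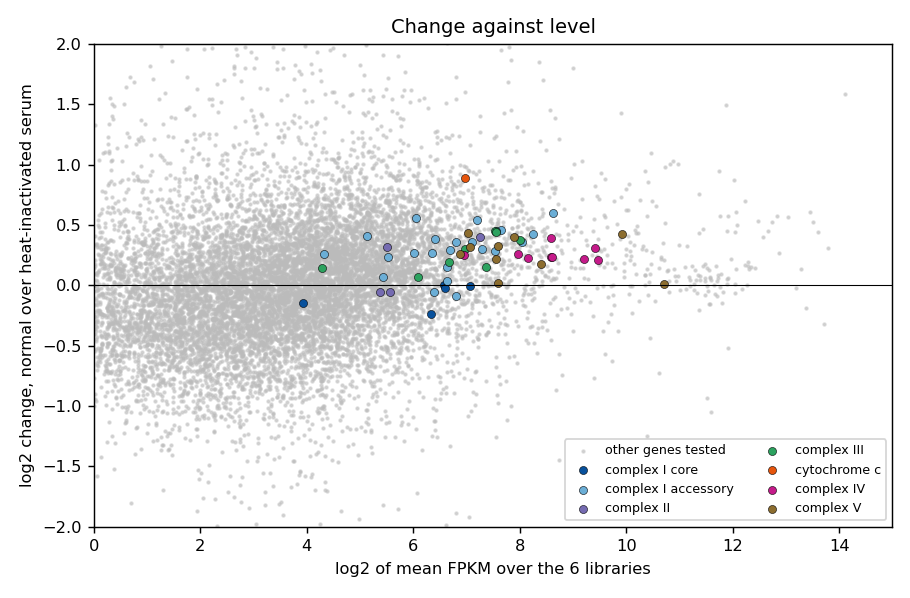
The log2 change of each tested gene (normal over heat-inactivated serum, vertical axis) is plotted against the log2 of its mean FPKM over the 6 libraries (horizontal axis). Grey points are other genes, coloured points are subunits by complex, and 132 genes beyond a log2 change of 2 in size lie outside the plot. The subunits lie on the abundant side, where the grey points also lie mostly above 0.

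The size of these changes depended on how the libraries were scaled. Total FPKM was between 980877 and 1016474 in normal serum and 852828, 867794 and 1007949 in heat-inactivated serum. Bringing every library to 1 common total shifted the all-gene median log2 change by over 0.1, to -0.12, and the subunits then had a median of 0.12. Relative to all genes the subunits' median was then 0.24, against 0.25 without the rescaling. Fewer subunits were called there, 12 higher and 2 lower, when 16.5% of all genes were called higher and 31.0% lower. The share of subunits called higher was thus near that of all genes, and the share called lower was below it. Equalised over transcripts of at least 300 bases only, 16 subunits were higher and 6 lower (18.3% and 37.1% of all genes). Of all calls 34.7% were higher with the same total FPKM, and 51.6% without. Quantile normalization, which gives every library the same distribution of values, left 10 subunits higher and 8 lower (24.3% and 27.2% of all genes). As shares of the tested subunits, both counts were below those of all genes. The subunits' median relative to all genes was 0.08 there. All counts by complex below carry this limit.

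A total of 9 subunits were called higher in all 20 alternative analyses: CYCS, NDUFB4, NDUFB2, NDUFC2, NDUFB9, NDUFA11, CYC1, UQCRC1 and ATP5L. Of these 5 belong to complex I (28 tested), and none to complexes II (4 tested) or IV (9 tested). The share of all genes called higher in all 20 is not given, so this count cannot be set against it.

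CYCS encodes cytochrome c, which carries electrons between complexes III and IV and, once released from mitochondria, triggers caspase activation. It had the largest change of the 60 subunits. CYCS stood at 175, 168 and 148 FPKM in normal serum, against 92.3, 85.6 and 85.1 FPKM in heat-inactivated serum. The groups did not overlap, and the lowest normal serum library lay well above the highest heat-inactivated one. CYCS was 1.87-fold higher in normal serum, a log2 change of 0.89 ± 0.08 (SE; limma adjusted p = 1.04e-04). Over the 20 alternatives its log2 change lay between 0.68 and 0.96 and its adjusted p was at most 9.42e-04. The authors' deposited table gives its transcript, on chromosome 3, a log2 fold change of 0.90.

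In complex I, which oxidises NADH, 15 of 28 tested subunits were higher and 1 was lower, with a median log2 change of 0.28. The counts differed by the kind of subunit. The nuclear-encoded core subunits, which do the work of electron transfer, include NDUFV1, NDUFS1, NDUFS7 and NDUFS8. The core genes NDUFS3 and NDUFV2 were not among the matched symbols. None of the 5 core subunits tested was higher, 1 was lower, and their median log2 change was -0.03. That median is near the 0.01 of all genes, of which 27.8% were higher and 26.1% lower. Of 23 tested accessory subunits, which surround the core and have no redox centre, 15 were higher and none lower, with a median of 0.30. The difference between these classes was not tested. The median transcript length was 1468 bases for core and 606 bases for accessory subunits (759 for NDUFS7 and 633 for NDUFS8), and the part of length in the difference was not tested. Under all scalings, and with the trend against transcript length removed, no core subunit was called higher. When total FPKM was equalised 2 core subunits were lower and 6 accessory subunits higher. With quantile normalization 3 core subunits were lower, and 6 accessory subunits were higher and 2 lower.

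NDUFV1, the subunit that binds NADH and holds the flavin, was the only subunit called lower in normal serum, though 2, 6 and 8 subunits were called lower under the other scalings given above. NDUFS1 and NDUFB10 also lay wholly below but were not called. It stood at 72.4, 81.1 and 67.9 FPKM in normal serum, against 82.6, 88.2 and 91.0 FPKM in heat-inactivated serum. The groups were close but did not overlap. NDUFV1 fell to 0.846 of its heat-inactivated serum mean, a log2 change of -0.24 ± 0.08 (limma adjusted p = 0.0348). It was lower in 15 of 20 alternatives. Without normal serum replicate 1 or 3 its adjusted p was 0.0808 and 0.101, without heat-inactivated serum replicate 2 or 3 it was 0.0905 and 0.109, and with replicates 2 and 3 only it was 0.0653 (limma).

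NDUFS1, the large iron-sulfur subunit next to NDUFV1, was the least abundant tested subunit of complex I. Its values were 13.99, 14.9 and 14.4 FPKM in normal serum and 16.1, 15.9 and 16.2 FPKM in heat-inactivated serum, without overlap, but it was not called (log2 change -0.15 ± 0.06, limma adjusted p = 0.0681). With the same total FPKM NDUFS1 was lower (limma adjusted p = 0.0385). NDUFS7, which carries the last iron-sulfur cluster before ubiquinone, stood at 114, 85.7 and 87.7 FPKM in normal serum and 105, 85.4 and 99.99 FPKM in heat-inactivated serum. In both treatments its replicate 1 was the highest library. NDUFS8, another iron-sulfur subunit, stood at 156, 133 and 115 FPKM in normal serum, a wider spread than the 134, 131 and 137 FPKM in heat-inactivated serum.

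**Figure D3:**
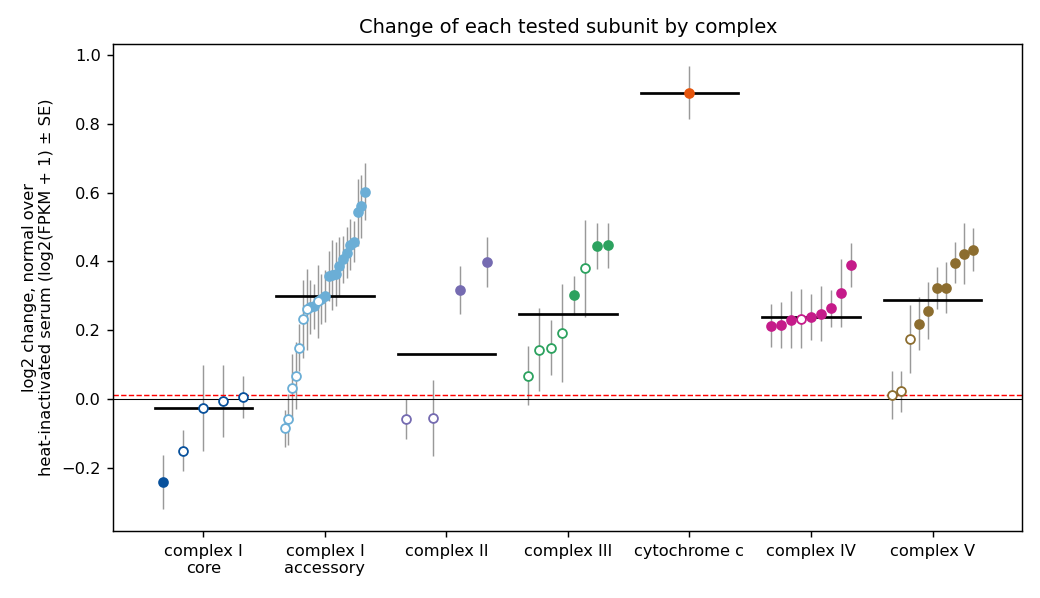
Each point is a tested subunit and shows its log2 change, normal over heat-inactivated serum, on the log2(FPKM + 1) scale with its SE. Filled points passed an adjusted p under 0.05, open points did not, black bars are medians per class, and the red dashed line is the median of all genes tested (0.01). The core subunits of complex I lie close to 0 or below it, and the accessory subunits reach 0.60. With the same total FPKM the median of complex II, and with quantile normalization those of complexes II and IV, fall below 0, as does that of all genes.

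Among the accessory subunits NDUFB4, which sits in the membrane arm, was both the most abundant and the most changed. NDUFB4 stood at 488, 518 and 426 FPKM in normal serum, against 299.6, 311 and 329 FPKM in heat-inactivated serum. Every normal serum library lay above every heat-inactivated one. It was 1.52-fold higher (log2 change 0.60 ± 0.08, limma adjusted p = 8.14e-04). NDUFB2, also of the membrane arm, was 1.49-fold higher, with 72.1 to 88.4 FPKM in normal serum and 49.1 to 56.1 FPKM in heat-inactivated serum. NDUFC2 was 1.46-fold higher, with 157 to 191 FPKM in normal serum and 109 to 131 FPKM in heat-inactivated serum. By family, 7 of 10 NDUFB, 5 of 8 NDUFA, 1 of 2 NDUFC, 2 of 6 NDUFS and 0 of 2 NDUFV subunits were higher. Both NDUFS subunits that were higher, NDUFS4 (1.31-fold) and NDUFS5 (1.23-fold), are accessory, and both were named after their values were seen. NDUFB7 just missed the threshold: it stood at 226, 216 and 171 FPKM in normal serum and 171, 159 and 169 FPKM in heat-inactivated serum (limma adjusted p = 0.0546). The accessory subunits nearest to no change or below it were NDUFB10 (fold 0.943), NDUFB5 (0.959) and NDUFA7 (1.03). NDUFB2, NDUFC2, NDUFB7 and these 3 were picked out after their values were seen.

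Complex II links the tricarboxylic acid cycle to the chain by oxidising succinate. Of its 4 subunits 2 were higher and none lower, where 27.8% of all genes were higher and 26.1% lower. The median log2 change was 0.13, which is 0.12 above that of all genes. It was still 0.11 above that of all genes with the same total FPKM, though at -0.01 itself, and 0.0048 above with quantile normalization (-0.01 itself). SDHB, the iron-sulfur subunit, stood at 48.5, 53.9 and 49.7 FPKM in normal serum, against 38.0, 42.3 and 41.2 FPKM in heat-inactivated serum, and was 1.25-fold higher (limma adjusted p = 0.0066). SDHC, a membrane anchor, stood at 186, 174 and 161 FPKM in normal serum, against 138, 123 and 132 FPKM in heat-inactivated serum, and was 1.32-fold higher (limma adjusted p = 0.0031). The groups did not overlap for either gene. SDHC and SDHB were not called with the same total FPKM (limma adjusted p = 0.0627 and 0.165). SDHA, the flavin subunit that oxidises succinate, stood at 45.9, 47.5 and 45.3 FPKM in normal serum and 49.9, 48.6 and 46.2 FPKM in heat-inactivated serum, with overlap. SDHD, the other membrane anchor, stood at 45.4, 34.2 and 43.3 FPKM in normal serum and 43.7, 39.6 and 43.6 FPKM in heat-inactivated serum. The SDHD model on chromosome 13 is 480 bases long, a multiple of 3, and may hold coding sequence only.

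Complex III passes electrons from ubiquinol to cytochrome c. Of 8 tested subunits 3 (37.5%) were higher and none was lower, where 27.8% of all genes were higher and 26.1% lower, so the count of higher subunits is near that of all genes. All 8 changes were positive, with a median log2 change of 0.25. CYC1, which carries the haem that hands electrons to cytochrome c, stood at 229, 212 and 201 FPKM in normal serum, against 162, 154 and 154 FPKM in heat-inactivated serum. It was 1.37-fold higher (log2 change 0.45 ± 0.07, limma adjusted p = 0.0010), and the groups were well apart. UQCRC1, a core protein on the matrix side, stood at 217, 223 and 209 FPKM in normal serum, against 146, 163 and 167 FPKM in heat-inactivated serum, and was 1.36-fold higher (limma adjusted p = 0.0013). Its partner UQCRC2 stood at 62.4, 76.0 and 69.5 FPKM in normal serum and 62.1, 70.1 and 65.6 FPKM in heat-inactivated serum, with wide overlap. The third subunit that was higher was UQCRB, which lies near the ubiquinone site (1.24-fold), named after its values were seen.

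UQCRQ, a small subunit, had the highest FPKM of complex III. It stood at 345, 296 and 233 FPKM in normal serum and 245, 210 and 209 FPKM in heat-inactivated serum, so that normal serum replicate 3 overlapped heat-inactivated replicate 1 (limma adjusted p = 0.0533). The row named UQCRFS1, the symbol of the Rieske iron-sulfur protein, stood at 22.9, 16.8 and 22.2 FPKM in normal serum and 18.0, 19.9 and 17.5 FPKM in heat-inactivated serum. A further row, which the table names MMU.977 and describes as the Rieske subunit, was more abundant and separated the treatments: 97.4, 86.3 and 83.8 FPKM in normal serum, against 70.8, 68.7 and 68.1 FPKM in heat-inactivated serum (1.29-fold, limma adjusted p = 0.0040). It does not match the rule by name and was added after its values were seen. The UQCRFS1 and UQCRH models have lengths of 825 and 276 bases, multiples of 3. Whether they and the SDHD model are copies of the genes elsewhere in the genome was not tested.

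Complex IV, cytochrome c oxidase, reduces oxygen to water. Of 9 tested subunits 8 were higher and none was lower, where 27.8% of all genes were higher and 26.1% lower. The log2 changes had a narrow range between 0.21 and 0.39. Their median was 0.24, which turned to -0.02 with quantile normalization, where that of all genes was -0.02 too. COX6B1, on the intermembrane side, had the largest change. It stood at 449, 457 and 403 FPKM in normal serum, against 329, 326 and 342 FPKM in heat-inactivated serum, and was 1.31-fold higher (limma adjusted p = 0.0020). COX6C, with the highest FPKM on a model of only 227 bases, stood at 785, 785 and 708 FPKM in normal serum, against 652, 667 and 643 FPKM in heat-inactivated serum, and was 1.16-fold higher (limma adjusted p = 0.0217). These groups did not overlap. COX4I1, the regulatory subunit that helps to start assembly, stood at 669, 649 and 589 FPKM in normal serum, against 562, 529.8 and 549 FPKM in heat-inactivated serum (1.16-fold, limma adjusted p = 0.0267). COX5B, which binds zinc, stood at 268, 282 and 268 FPKM in normal serum, against 219.6, 230.1 and 232 FPKM in heat-inactivated serum (1.20-fold, limma adjusted p = 0.0051). COX5A, which faces the matrix, was the subunit not called: it stood at 436, 432 and 394 FPKM in normal serum and 318, 368 and 389 FPKM in heat-inactivated serum (1.17-fold, limma adjusted p = 0.0533).

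The complex IV count rested on small changes and was the least stable. After equalising total FPKM COX6B1 alone was called higher, and with quantile normalization none was. The count was 2 without normal serum replicate 1 and also without normal serum replicate 2, 3 without heat-inactivated serum replicate 2 and 4 without replicate 3. In that order 5811, 5475, 5556 and 5455 of all genes were called in either direction, against 6381 with all libraries. The share of all genes called higher in these fits is not given, so the counts cannot be set against it. With replicates 2 and 3 only the complex IV count was 3. All subunits together then had 28 higher and 0 lower, when 25.3% of all genes were called higher and 21.7% lower. With the length trend removed the count was 2, with 26 subunits higher and 2 lower in all (27.8% and 25.9% of all genes).

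Complex V makes ATP with a rotor driven by protons. Of 10 tested subunits 7 were higher and none was lower, where 27.8% of all genes were higher and 26.1% lower. The median log2 change was 0.29. In the catalytic head ATP5A1, the alpha subunit, stood at 188, 206 and 189 FPKM in normal serum and 186, 190.0 and 197 FPKM in heat-inactivated serum, with overlap (1.02-fold, limma adjusted p = 0.773). The beta subunit, which holds the catalytic sites with alpha, was not matched by the rule, but a gene identifier given the symbol ATP5F1B by a table of gene names stood at 498, 489 and 467 FPKM in normal serum, against 337, 331 and 337 FPKM in heat-inactivated serum. That gene was 1.45-fold higher, without overlap (limma adjusted p = 1.87e-04). The difference between alpha and beta was not tested.

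The central stalk subunits of complex V were all higher. ATP5C1, the gamma subunit that turns inside the head, stood at 143, 155 and 149 FPKM in normal serum, against 113, 121 and 123 FPKM in heat-inactivated serum (1.25-fold, limma adjusted p = 0.0034). ATP5D, the delta subunit, stood at 236, 214 and 196 FPKM in normal serum, against 169, 172 and 172 FPKM in heat-inactivated serum (1.26-fold, limma adjusted p = 0.0082). ATP5E, the epsilon subunit, stood at 1097, 1178 and 1044 FPKM in normal serum, against 732, 867 and 884 FPKM in heat-inactivated serum (1.34-fold, limma adjusted p = 0.0056). None of these 3 overlapped between treatments. With the same total FPKM ATP5E was called (limma adjusted p = 0.0328), and ATP5C1 and ATP5D were not (0.123 and 0.165). ATP5L, a membrane subunit found where synthases pair, had the largest change of the complex: 149, 160 and 141 FPKM in normal serum, against 113, 108 and 111 FPKM in heat-inactivated serum (1.36-fold, limma adjusted p = 0.0010).

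The proton-carrying c ring of complex V is encoded by the ATP5G genes. ATP5G3 stood at 282, 273 and 255 FPKM in normal serum, against 212, 199 and 203 FPKM in heat-inactivated serum, and was 1.32-fold higher (limma adjusted p = 0.0013). The symbol ATP5G1 had the highest summed FPKM of the tested subunits. Its sum stood at 1673, 1786 and 1573 FPKM in normal serum and 1583, 1738 and 1670.4 FPKM in heat-inactivated serum, with overlap (limma adjusted p = 0.908). The ATP5G1 share of the family's FPKM was 86.1% ± 0.59 in normal serum and 89.0% ± 0.79 in heat-inactivated serum (SD, n = 3 each). The symbol ATP5G1 sums transcripts on chromosomes 16, 11 and 5. The pair on chromosome 11 holds most of the value, and its means were 0.901-fold and 0.983-fold those in heat-inactivated serum. A 559-base transcript on chromosome 16 was 1.44-fold as abundant in normal serum as in heat-inactivated serum, and the transcript on chromosome 5 was 1.51-fold. A less abundant 549-base transcript on chromosome 16 was 2.34-fold. Single transcripts were not tested with limma, but the authors' deposited table tests them. Its Cuffdiff q-values were 2.23e-04 for the 559-base and the chromosome 5 transcripts and 0.0109 for the 549-base transcript. For the chromosome 11 pair they were 0.798 and 0.930. Which of these transcripts come from the ATP5G1 gene itself is not known from the table. The level, call and share above therefore describe the summed symbol and not a single known gene.

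Other isoform pairs were dominated by a single member. COX4I2, the oxygen-regulated alternative to COX4I1, was listed at 0.202 FPKM in normal serum replicate 2 and at 0 in the other 5 libraries. NDUFA4 stood at 321, 333 and 273 FPKM in normal serum, against 271, 262 and 254 FPKM in heat-inactivated serum, and was 1.18-fold higher (limma adjusted p = 0.0485). Its relative NDUFA4L2, known as a hypoxia-induced gene, stood at 2.21, 2.60 and 2.58 FPKM in normal serum and 1.83, 3.46 and 3.42 FPKM in heat-inactivated serum. NDUFA4 thus made up 99.2% ± 0.13 of the pair in normal serum and 98.9% ± 0.37 in heat-inactivated serum (SD, n = 3 each), a difference within the spread.

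Summed over the measured subunits, each complex had more transcript in normal serum. Complex I summed to 3817 ± 275 FPKM in normal serum, against 3077 ± 64.2 FPKM in heat-inactivated serum (SD, n = 3 each), a ratio of 1.24. The ratios were 1.19 for complex II, 1.25 for complex III, 1.20 for complex IV and 1.15 for complex V. In none of the 5 did the treatments overlap. With the same total FPKM the ratios were 1.12, 1.07, 1.13, 1.08 and 1.03 for complexes I to V, and only complex I did not overlap. The core subunits of complex I summed to 414 ± 34.4 FPKM in normal serum and 429 ± 10.8 FPKM in heat-inactivated serum, with overlap, and the accessory subunits to 3403 ± 243 FPKM in normal serum and 2648 ± 55.9 FPKM in heat-inactivated serum, without overlap. The balance between complexes moved little. Complex I held 27.4% ± 0.40 of the sum over the 5 complexes in normal serum and 26.4% ± 0.35 in heat-inactivated serum, and complex V held 31.9% ± 0.81 in normal serum and 33.3% ± 1.10 in heat-inactivated serum (SD, n = 3 each).

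**Figure D4:**
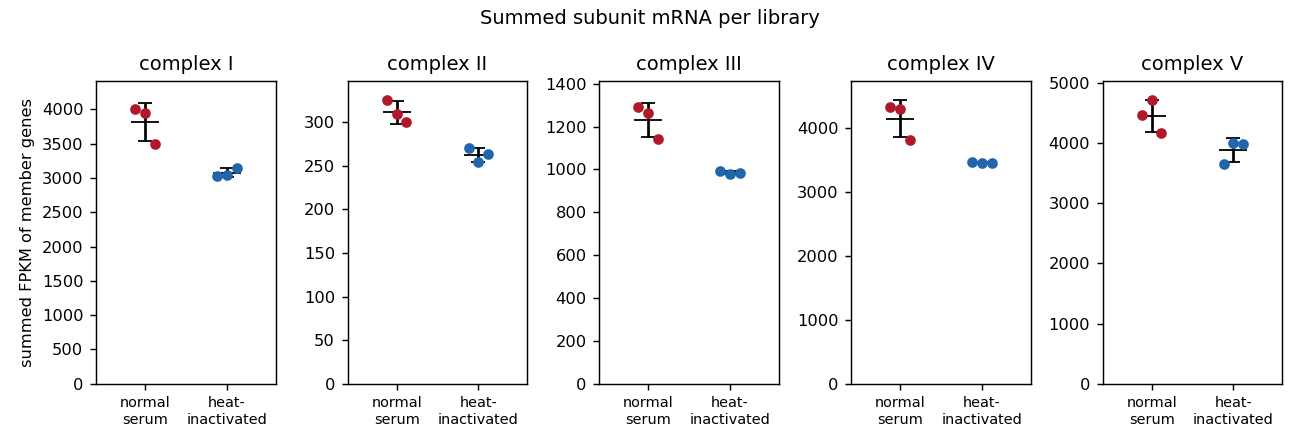
Each panel shows the summed FPKM of a complex's member genes, with a point per library and the mean ± SD in black, for normal serum (left) and heat-inactivated serum (right). The vertical axes start at 0 and differ between panels. The treatments are apart in all 5 panels, though with the same total FPKM only complex I would not overlap, and normal serum replicate 3 is the lowest of its group in complexes I to V.

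Within complex I the levels of subunits differed far more than the treatments did. The subunit with the highest FPKM, a unit per length, was NDUFB4, with 25.9 times the mean FPKM over all libraries of NDUFS1, the lowest. Such ratios are not given for the other complexes, where the highest or lowest row is very short or may include copies of the gene.

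A total of 9 members were not tested. NDUFA13, NDUFA5, NDUFS6, UQCR10, COX6A2, COX7C and ATP5O were listed at 0 in all 6 libraries, and COX4I2 and ATP5S averaged below 1 FPKM. Most of these zeros belong to subunits that every respiring cell uses, so a zero here can be a failed estimate and not the absence of the transcript. Of the 7 matching symbols that are not subunits, 6 were tested and 4 were higher, where 27.8% of all genes were higher. COX4NB, which lies beside COX4I1 in the genome and encodes a protein of the endoplasmic reticulum membrane, stood at 31.9, 29.3 and 27.1 FPKM in normal serum, against 19.1, 18.3 and 16.3 FPKM in heat-inactivated serum (1.64-fold, limma adjusted p = 5.41e-04). SDHAF2, which inserts the flavin into SDHA, was 1.38-fold higher and SDHAF1, an iron-sulfur assembly factor for complex II, 1.24-fold. These names were picked after their values were seen.

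The authors' deposited table, which tests transcripts and not summed genes, held 87 member transcripts with a valid test. Of these 47 were higher and 1 was lower at a q-value under 0.05 in the authors' deposited table, which is 54.0% and 1.15%. Among all 17230 valid transcripts 20.6% were higher and 20.5% lower by the values in the authors' deposited table. The size of change was at least 1 on the log2 scale for 3 member transcripts in the authors' deposited table. They were a minor ATP5G1 transcript (Cuffdiff q = 0.0109) and transcripts of ATP5SL (Cuffdiff q = 0.0078 and 0.230), which is not a subunit.

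Factors that build the complexes changed in both directions. Of 40 tested assembly factors 17 (42.5%) were higher and 5 lower, where 27.8% of all genes were higher and 26.1% lower, with a median log2 change of 0.23. This list includes SDHAF1 and SDHAF2. With the same total FPKM 7 were higher and 5 lower, a share of higher genes near the 16.5% of all genes. The median was then 0.10, or 0.22 above that of all genes, as without the rescaling. NDUFAF4, which acts early in complex I assembly, stood at 56.9, 63.8 and 54.8 FPKM in normal serum, against 26.6, 27.7 and 29.6 FPKM in heat-inactivated serum. It was 2.09-fold higher (limma adjusted p = 5.30e-05), with no overlap. NDUFAF5, which modifies NDUFS7, was 1.48-fold higher (limma adjusted p = 3.25e-04). The 5 that were lower, named after their values were seen, were COX15 (0.569-fold), which takes part in making haem A, ATPAF1 (0.659-fold), which assists the beta subunit of complex V, TMEM126B (0.751-fold), TTC19 (0.816-fold) and TIMMDC1 (0.884-fold). Both NDUFAF4 and NDUFAF5 serve complex I, and so do TMEM126B and TIMMDC1.

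Among other subunit and regulator genes outside the naming rule 5 of 6 were higher and none lower, with a median of 0.40. The shares of all genes were 27.8% higher and 26.1% lower. USMG5, a small subunit of the ATP synthase membrane part, was 1.40-fold higher (limma adjusted p = 0.0039). HIGD1A, which associates with complex IV, was 1.35-fold higher (limma adjusted p = 0.0041). NDUFA9, an accessory complex I subunit that a gene identifier received from the table of gene names, was 1.41-fold higher (limma adjusted p = 5.83e-04).

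Regulators of mitochondrial biogenesis and of mitochondrial DNA expression were mixed: 8 of 16 were higher and 3 lower, with a median of 0.21, and with the same total FPKM 5 were higher and 4 lower. GABPB1, the beta subunit of the nuclear factor GABP (also called NRF2) that acts on many respiratory chain promoters, stood at 26.8, 27.5 and 27.7 FPKM in normal serum, against 11.1, 11.8 and 12.8 FPKM in heat-inactivated serum. It was 2.30-fold higher (limma adjusted p = 2.39e-05). GABPA, the DNA-binding subunit of the same factor, was lower, at 4.52, 5.02 and 4.90 FPKM in normal serum against 7.26, 7.19 and 7.69 FPKM in heat-inactivated serum (0.652-fold, limma adjusted p = 0.0010). PPRC1, a coactivator of the PGC-1 family, was 1.62-fold higher (limma adjusted p = 2.54e-04), while PPARGC1A, the best known member of that family, was 0.428-fold at levels near 1 FPKM (limma adjusted p = 0.0063). GABPA and PPARGC1A were picked after their values were seen.

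In the tricarboxylic acid cycle 5 of 14 genes (35.7%) were higher and 1, SUCLG2, was lower. In coenzyme Q synthesis 5 of 13 (38.5%) were higher and 3 lower. Both shares of higher genes are near the 27.8% of all genes. The median was 0.10 for the cycle and 0.02 for coenzyme Q synthesis, or 0.087 and 0.0090 above that of all genes, and with the same total FPKM 0.079 above and -0.0023 from it. FH, fumarase, acts on the product of complex II and stood at 90.7, 95.4 and 91.0 FPKM in normal serum, against 43.7, 45.6 and 45.4 FPKM in heat-inactivated serum (2.06-fold, limma adjusted p = 1.27e-05). IDH3A, the catalytic subunit of the NAD-dependent isocitrate dehydrogenase, was 1.77-fold higher (limma adjusted p = 3.31e-05). PDSS1, which starts the ubiquinone side chain, was 1.98-fold higher (limma adjusted p = 0.0016), and COQ10B, a ubiquinone-binding protein, 1.58-fold (limma adjusted p = 6.02e-04). For carriers of ADP, ATP and phosphate and related genes 5 of 8 (62.5%) were higher and 1, SLC25A3, was lower, with a median of 0.24. With the same total FPKM 1 of the 8 was higher and 1 lower, where 16.5% of all genes were higher and 31.0% lower. SUCLG2 and SLC25A3 were named after their values were seen. SLC25A4, an ADP/ATP carrier, was 1.38-fold higher (limma adjusted p = 7.81e-04).

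Of the 13 mRNAs encoded by mitochondrial DNA 8 were higher and none lower, where 27.8% of all genes were higher and 26.1% lower. Their median log2 change was 0.47. With the same total FPKM 3 of the 13 were higher and none lower, where 16.5% of all genes were higher and 31.0% lower. The median was then 0.33. ND3, a core subunit of complex I, stood at 5355, 4147 and 3966 FPKM in normal serum, against 2535, 2498 and 1954 FPKM in heat-inactivated serum (1.93-fold, limma adjusted p = 0.0013). ATP8, of complex V, was 1.52-fold higher (limma adjusted p = 0.0043). COXI, the catalytic subunit of complex IV, stood at 12436, 9247 and 9638 FPKM in normal serum and 11328, 9599 and 7624 FPKM in heat-inactivated serum, with overlap (limma adjusted p = 0.505), and was picked after its values were seen. The 13 together held 12.5%, 9.54% and 9.93% of all FPKM in normal serum and 10.4%, 9.38% and 6.33% in heat-inactivated serum. Those shares overlap, with replicate 1 the highest library of each treatment. Some of these genes overlap (ATP8 and ATP6, ND4L and ND4) or lie opposite each other (ND5 and ND6), and the labels do not show that the kit kept strand, so reads of neighbours may not be told apart.

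**Figure D5:**
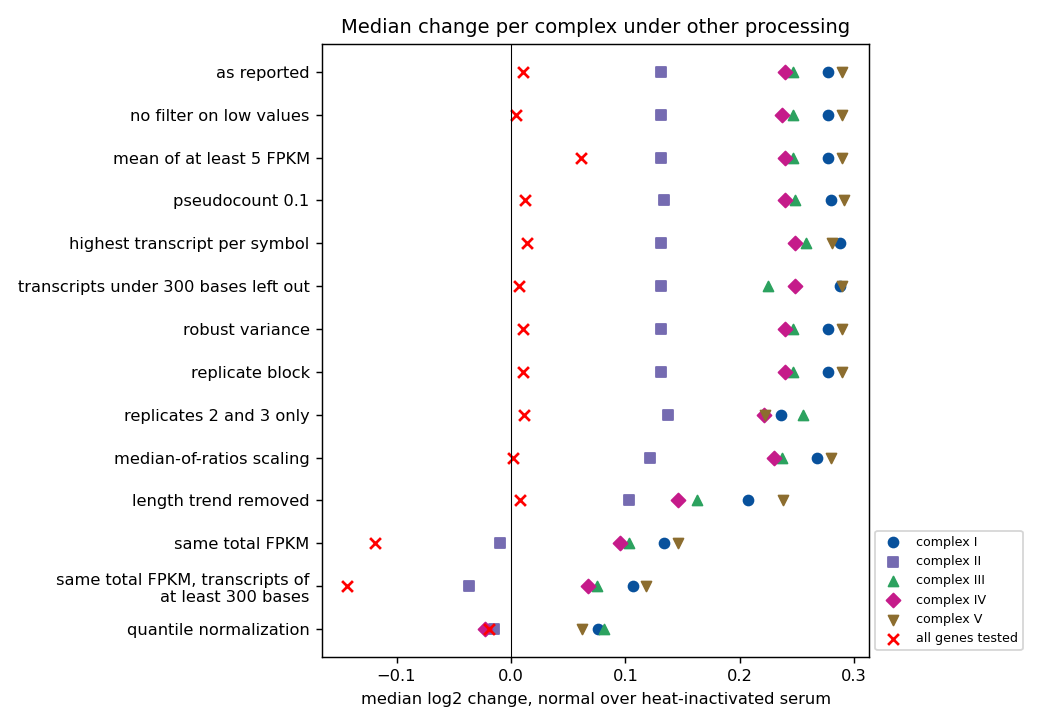
Median log2 change of the tested subunits of each complex (coloured symbols) and of all genes tested (red cross), normal over heat-inactivated serum, as reported and under other processing, 1 setting per line. Complexes I, III and V stay above 0 in every line shown. Complex II falls below 0 with the same total FPKM (over all transcripts or those of at least 300 bases) and with quantile normalization, and complex IV with quantile normalization, settings in which the median of all genes is below 0 as well.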

How the data were processed

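Polyadenylated RNA of 3 normal serum and 3 heat-inactivated serum libraries was measured, and treatments were taken from the labels. The authors deposited FPKM per transcript and library. Per the submitters' processing notes their tools were TopHat2 2.0.7, Cufflinks 2.1.1 and Cuffdiff 2.1.1. No genome build is named in the labels or the table. The authors' deposited table also holds, for each transcript, a log2 fold change with a p-value, a q-value and a length in bases.

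FPKM of transcripts with the same symbol were summed. A table of gene names gave symbols to 256 of 7008 identifiers that lacked them. Sums join isoforms and any copies that share a symbol, and very short transcripts give erratic FPKM. The genes whose mean reached 1 FPKM were tested on log2(FPKM + 1) with limma 3.58.1 (R 4.3.3), with trended variance and Benjamini-Hochberg adjustment over all 11818 genes. Changes on that scale understate those of low genes, and each fold given is a ratio of mean FPKM. An exact permutation test of 3 against 3 libraries cannot go below 0.1 and was not used.

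Depth was read from the lowest values, where 1 fragment has a fixed worth. Within 0.1 fragments, replicates 2 and 3 of both treatments had 100% of low values whole. In replicate 1 it was 48.5% (normal serum) and 55.7% (heat-inactivated serum), and 20% would be whole by chance. Fragments per subunit were estimated in replicates 2 and 3 only, over transcripts of at least 400 bases. For the 50 subunits with an estimate the lowest of these libraries held at least 159 fragments, a counting error of at most 7.93%.

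The members and gene lists were chosen with earlier results of these data known, and the mitochondrial mRNAs were matched by chromosome after the table was seen. Values in every library are given for redox and catalytic subunits, isoform pairs, and in each complex the largest called rise and fall and the most abundant subunit. In each other list the 2 called genes with the smallest adjusted p are named. Any other name, also where it only spells out a count, was picked with the values in view. Some genes that these rules cover are not reported here. Alternatives changed pseudocount, filter, scaling, variance, summing and libraries. No sequence is shown.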

Additional observations from a re-analysis of the deposited data

How the results depend on the processing

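Changing the pseudocount, the filter on low values, the variance model, the summing of transcripts or the median-of-ratios scaling left the counts of subunits called within 1.5 times those reported. Of the medians only that of all genes moved there, to 0.062 (0.011 as reported) with a mean of at least 5 FPKM. Scaling mattered most. The counts of subunits higher and lower (36 and 1) were 12 and 2 with the same total FPKM, 16 and 6 with the same total over transcripts of at least 300 bases, and 10 and 8 with quantile normalization. In that order of settings the higher counts were 6, 8 and 6 for complex I, 0, 1 and 0 for complex II, 1, 1 and 0 for complex IV, and 2, 3 and 1 for complex V. In the same order the median log2 changes were -0.12, -0.14 and -0.019 for all genes, 0.12, 0.097 and 0.061 for the subunits, 0.13, 0.11 and 0.076 for complex I, and -0.0099, -0.037 and -0.014 for complex II. They were 0.10, 0.075 and 0.081 for complex III, 0.095, 0.067 and -0.022 for complex IV, and 0.15, 0.12 and 0.062 for complex V. Of all genes 2158 were called higher and 4380 lower with the same total over transcripts of at least 300 bases, against 3291 and 3090 as reported. The summed FPKM ratios with the same total FPKM were 1.12, 1.07, 1.13, 1.08 and 1.03 for complexes I to V.

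With the length trend removed 2 subunits were lower, 2 of complex IV were higher, and the medians were 0.10 for complex II and 0.16 for complex III. With replicates 2 and 3 only 28 subunits were higher and 0 lower, and 3 of complex IV were higher. Leaving out each library in turn gave between 0 and 1 subunits lower, between 2 and 8 of complex IV higher, a complex II median between 0.12 and 0.17 and a complex III median between 0.25 and 0.31. With complexes formed by name alone, SDHAF1 and SDHAF2 joined complex II, which then had 4 higher and a median of 0.31. With the highest transcript per symbol the NDUFA4 share differed by 0.17 percentage points (0.30 as reported) and the ATP5G1 share by -4.81 (-2.90 as reported), normal minus heat-inactivated serum. The cause of these shifts was not tested.

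Reversed signs were found for single genes. With quantile normalization the log2 changes were -0.22 for ATP5A1 (limma adjusted p = 0.0067), -0.21 for ATP5G1 (0.0105), -0.035 for ATP5F1, -0.021 for COX4I1, -0.045 for COX5B, -0.022 for COX6C, -0.029 for COX7B and -0.056 for NDUFA4. The ATP5G1 sum, which lies mostly in the pair of transcripts on chromosome 11, was at -0.16 with the same total over transcripts of at least 300 bases (limma adjusted p = 0.0466). ATP5SL was at -0.027 with its highest transcript.

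Same-numbered libraries of the 2 treatments had correlations of 0.193, 0.0333 and 0.0059 between their deviations from the treatment means. The replicate 1 libraries correlated best with each other and negatively with every other number. Deviations from a treatment mean cancel out across its libraries, so those negative values are partly built in by the positive one. Replicate 2 of each treatment correlated better with replicate 3 of the other than with its own number (0.106 and 0.0861). Whether the numbers mark pairs or a batch shared by replicate 1 was not tested. With the replicate number as a block 6775 genes were called (6381 without), 40 subunits were higher and 1 lower, and complex III had 5 higher in place of 3.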
